A study of Mus musculus with 22 samples.

Results

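The genes described here encode secreted or surface proteins with which the gut epithelium meets bacteria. They are 9 of the 52636 genes of the deposited table, taken by symbol and with no regard to their values: Reg1, Reg3a, Reg3b, Reg3g, Retnlb, Lcn2, Saa1, Pigr and Lypd8. Against untreated, Pigr passed the threshold as lower in both groups exposed from day 2, and Reg1 after indirect CAP from day 2. Lypd8 passed it as higher after PAM from day 1. The Reg1 call was lost in 8 of 14 alternative settings, and no member was called between treated groups in the main fits. The genes Reg3a, Reg3b and Reg3g had lower group means than untreated in every treated group but did not pass the threshold in any single-group comparison, and organoid lines differed in them. Lcn2 was near 0 except in both day 2 groups, and Saa1 was listed at 0 in 21 of 22 libraries.

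The libraries are RNA-seq of duodenal organoids grown from outbred CD1 mice of wild-type genotype aged 2 months, exposed or not to cold atmospheric plasma (CAP) from a jet run at 50 W for 60 s. For direct CAP the jet played on the organoids themselves at day 1, with a change of medium after 30 min (direct 30 min) or after 24 h (direct 24 h). Indirect CAP was medium taken from another treated culture, and plasma-activated medium (PAM) was medium treated with no organoids in it, each given from day 1 or from day 2 (indirect day 1, PAM day 1, indirect day 2, PAM day 2). The study's methods give 24 h of exposure for these 4 groups and an end at day 3, while the labels give 30 min for both day 1 media and 24 h for both day 2 media, and the time at which the direct 30 min group was collected is not certain. Organoid lines from 4 mice, called lines 1 to 4 here, each gave 1 untreated library, and lines 1, 2 and 4 gave 1 library in each of the 6 treated groups. Lines 1 and 2 were from males at passages 12 and 14, and lines 3 and 4 from females at passage 4 in the labels and 2 in the methods, so sex and passage cannot be told apart here. Such cultures hold epithelium only. The labels call the cells stem cells, but in the untreated libraries the summed values were 28399 to 33368 for 4 stem cell markers, 116845 to 133428 for 8 enterocyte markers, 76008 to 132955 for 6 goblet cell markers and 30017 to 41590 for 6 Paneth cell markers. Over all 22 libraries the 7 immune markers summed to between 278 and 426, with 4 of them reaching 10 in any library, the 7 stromal and endothelial markers to between 8 and 42, and the 5 pancreatic acinar markers to between 36 and 145. No listed marker was at 0 in all libraries.

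A value is a number of reads on a gene after the authors scaled each library to about 20 M (M for mega) and rounded up, with no division by gene length. The reads counted per library were estimated from the spacing of the low values at 19.4 to 28.7 M (median 22.6). Differences were tested with limma on log2(value + 1), with adjustment of p over all genes tested (Benjamini-Hochberg), and to be called, a gene needed an adjusted p below 0.01 together with a log2 fold change of 1 or more in size. The 4 untreated libraries serve as control in every comparison with untreated, so those comparisons are not independent of one another. Values with the line as a block are given only where they change a call, and they rest on the line labels. Same-line pairing is in doubt for the untreated libraries of lines 1 and 2, whose residuals correlated more with treated libraries of the other line (median r 0.541 and 0.353) than with those of their own (0.0751 and 0.132).

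The Reg proteins are small secreted C-type lectins. REG3G kills Gram-positive bacteria by binding their peptidoglycan, REG3B acts mainly on Gram-negative bacteria, and both keep bacteria at a distance from the small intestinal surface, where enterocytes and Paneth cells make them. Interleukin-22 acting through STAT3 and bacterial signals through MYD88 are known inducers of Reg3 genes, and IL-4 and IL-13 through STAT6 induce Retnlb in goblet cells. Organoids have no immune cells to supply these cytokines. Retnlb encodes a goblet cell peptide toxic to Gram-negative bacteria, Lcn2 a lipocalin that takes up bacterial siderophores, Saa1 an acute-phase protein that binds retinol, Pigr the receptor that carries IgA and IgM across the epithelium, and Lypd8 a membrane-anchored protein that binds flagella.

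Reg1, Reg3a, Reg3b and Reg3g lie with Reg2 and Reg3d in 98.2 kb of chromosome 6 (chr6:78370657-78468872, GRCm38, GENCODE vM21). The other members lie apart: Pigr on chromosome 1 (130826684 to 130852249), Lcn2 on chromosome 2 (32384633 to 32388252), Saa1 on chromosome 7 (46740497 to 46742980), Lypd8 on chromosome 11 (58379043 to 58390728) and Retnlb on chromosome 16 (48816856 to 48818892). The sequences just before the RefSeq start sites of the 4 clustered members are shown because these genes had correlated values over the libraries, with all letters 5' to 3' on the gene's own strand and with the stretches covered by an annotated exon left out (RefSeq, GRCm38.p6). Capitals mark a match, on either strand, to TTCNNNGAA (the motif of STAT factors), TGANTCA (AP-1), TGTTTAC (forkhead factors) or the NF-kB motif, none of which overlapped another here.
Reg3b (chr6:78370707-78370860, plus strand, 154 bases): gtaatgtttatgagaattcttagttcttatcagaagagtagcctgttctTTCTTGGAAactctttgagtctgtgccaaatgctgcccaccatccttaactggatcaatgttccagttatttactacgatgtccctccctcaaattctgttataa
Reg3a (chr6:78380459-78380708, plus strand, 250 bases): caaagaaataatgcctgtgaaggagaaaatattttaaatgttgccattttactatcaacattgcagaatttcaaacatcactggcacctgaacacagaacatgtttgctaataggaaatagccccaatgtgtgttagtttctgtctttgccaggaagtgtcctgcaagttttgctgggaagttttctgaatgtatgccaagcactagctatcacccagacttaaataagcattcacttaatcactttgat
Reg1 (chr6:78425733-78425929, plus strand, 197 bases): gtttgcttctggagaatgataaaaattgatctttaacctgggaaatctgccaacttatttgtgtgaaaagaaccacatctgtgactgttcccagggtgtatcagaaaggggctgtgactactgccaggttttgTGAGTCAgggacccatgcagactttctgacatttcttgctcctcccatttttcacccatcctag
Reg3g (chr6:78468875-78469124, minus strand, 250 bases): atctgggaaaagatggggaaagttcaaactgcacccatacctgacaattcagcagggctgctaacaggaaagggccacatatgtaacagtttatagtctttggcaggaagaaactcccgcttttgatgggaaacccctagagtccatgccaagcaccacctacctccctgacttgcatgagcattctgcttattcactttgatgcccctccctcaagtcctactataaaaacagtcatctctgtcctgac

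The STAT motif of Reg3b (TTCTTGGAA) began 129 bases before its RefSeq start and the AP-1 motif of Reg1 (TGAGTCA) began 117 bases before its own. Left-out exon bases lie between each printed stretch and that start. By GENCODE, Reg3b begins at 78370657 and Reg1 at 78422711, so both matches lie inside the annotated gene and not upstream of it. None of the 4 motifs was found in the full 250 bases, exon-covered bases included, before the start of Reg3a, Reg3g, Lcn2, Saa1, Pigr or of either Lypd8 start, and Retnlb has no entry. Among 32851 promoters of the same 250 bases, 7.02% held the STAT motif, 6.75% the AP-1 motif, 4.65% the NF-kB motif and 3.17% the forkhead motif. A match is only a run of letters, and its absence from this window says nothing about the factor.

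In untreated organoids, levels per kb of exon ordered the members as Reg1 (17857 ± 3224, SD, n = 4, in scaled reads per kb), Pigr (10739 ± 695), Lypd8 (6697 ± 1181), Reg3g (1565 ± 385), Retnlb (1420 ± 1105), Reg3b (897 ± 441), Reg3a (529 ± 182) and Lcn2 (1.14 ± 1.12), with Saa1 at 0. From Reg3g down to Reg3a, neighbours in this order differed by less than their spread. Exon length joined all annotated exons of a gene, at 2114 bases for Reg3g and 904, 825 and 1142 for Reg1, Reg3a and Reg3b. The order depends on these lengths. Before division by length Reg3g was at 3308 ± 814, Reg3b at 1025 ± 503 and Retnlb at 989 ± 769 (SD, n = 4). No 100-base stretch of Reg1, Reg3a, Reg3b, Reg3g, Retnlb, Lcn2 or Lypd8 transcripts is shared with another gene, so their reads could be told apart, whereas 8.96% of those of Saa1 are shared with Saa2 and 0.153% of those of Pigr with other genes.

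Reg1 was the most abundant Reg gene and had its highest values in the untreated libraries, at 17844, 19095, 15049 and 12582 in lines 1, 2, 3 and 4. In lines 1, 2 and 4 it was at 13001, 15986 and 7764 after direct CAP for 30 min, 5276, 13405 and 5316 for 24 h, and 8022, 15455 and 4336 with indirect CAP from day 1. With PAM from day 1 it was at 975, 10208 and 4402, with indirect CAP from day 2 at 2050, 8374 and 2677, and with PAM from day 2 at 5475, 9790 and 515. Line 2 was the highest in all 6 treated groups, and the 3 last groups lay wholly below the untreated libraries, while the others overlapped them. Each treated library was below the untreated library of its own line. Reg1 fell after indirect CAP from day 2 by 2.15 on the log2 scale (SE 0.42, limma adjusted p = 0.0044). This call was lost in 8 of 14 alternatives, among them without the untreated library of line 1, 2 or 3 or the indirect day 2 library of line 1 or 4, with fold changes from -2.77 to -1.75 and adjusted p from 0.000164 to 0.0607. The log2 fold change was -0.44 (adjusted p = 0.292) at 30 min, -1.14 (0.0424) at 24 h, -0.97 (0.0892) with indirect CAP from day 1, -2.18 (0.0280) with PAM from day 1 and -2.40 (0.0495) with PAM from day 2. Without the PAM day 2 library of line 4, where Reg1 was at 515, the last value was -1.12 and was called.

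Reg3g, the Gram-positive-binding lectin, was at 3221, 4100, 3697 and 2212 in untreated lines 1, 2, 3 and 4. It was at 2237, 2830 and 1315 in lines 1, 2 and 4 after direct CAP for 30 min, 459, 2062 and 609 for 24 h, and 1166, 2071 and 885 with indirect CAP from day 1. It was at 58, 1056 and 439 with PAM from day 1, 796, 3141 and 1063 with indirect CAP from day 2, and 1302, 3969 and 500 with PAM from day 2. All 9 libraries of the direct 24 h, indirect day 1 and PAM day 1 groups lay below every untreated library, whereas both day 2 groups reached into the untreated range through line 2. Reg3g had the lowest of these values in PAM day 1, with a log2 fold change of -3.42 (SE 0.82, limma adjusted p = 0.0109), just short of the threshold. It was called in that comparison without the PAM day 1 library of line 1 (-2.24) or of line 2 (-4.32). Elsewhere the log2 fold change was -0.67 (adjusted p = 0.188) at 30 min, -1.95 (0.0253) at 24 h, -1.32 (0.0201) with indirect CAP from day 1, -1.22 (0.0492) with indirect CAP from day 2 and -1.23 (0.122) with PAM from day 2. Without the library of line 2 in the treated group Reg3g was called at 24 h (-2.61, adjusted p = 0.00271), with indirect CAP from day 2 (-1.81, 0.00129) and with PAM from day 2 (0.00751), where its log2 fold change moved from -1.23 to -1.997. Without the PAM day 2 library of line 4 the last value was -0.50 (0.357). The indirect day 1 value with the line as a block was -1.26 and was called (adjusted p = 0.00575).

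Reg3b, the lectin that acts on Gram-negative bacteria, was at 934, 772, 1757 and 635 in untreated lines 1 to 4. It was at 377, 877 and 416 in lines 1, 2 and 4 after direct CAP for 30 min, 205, 858 and 272 for 24 h, and 141, 533 and 209 with indirect CAP from day 1. It was at 220, 1802 and 179 with PAM from day 1, 91, 658 and 134 with indirect CAP from day 2, and 310, 1061 and 83 with PAM from day 2. Only the indirect day 1 group lay wholly below the untreated libraries, and the highest value of all was the PAM day 1 library of line 2. The largest differences were -1.91 on the log2 scale with indirect CAP from day 1 (SE 0.47, limma adjusted p = 0.0258) and -2.23 with indirect CAP from day 2 (SE 0.64, adjusted p = 0.0216). The others lay between -1.65 and -0.87, with adjusted p from 0.0917 to 0.237. Without the PAM day 1 library of line 2 the PAM day 1 value moved from -1.19 to -2.25 and was called, and without the indirect day 2 library of line 2 that of indirect day 2 was -3.09 and was called.

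Reg3a, a related lectin of the same cluster, was at 529, 413, 570 and 235 in untreated lines 1 to 4. It was at 292, 333 and 113 in lines 1, 2 and 4 after direct CAP for 30 min, 84, 255 and 57 for 24 h, and 127, 292 and 65 with indirect CAP from day 1. It was at 27, 234 and 52 with PAM from day 1, 63, 443 and 70 with indirect CAP from day 2, and 186, 618 and 13 with PAM from day 2. Line 2 again gave the highest value of every treated group, and PAM from day 1 was the only group wholly below the untreated libraries, by a margin of 1 scaled read. Its log2 fold change was -2.56 there (SE 0.65, limma adjusted p = 0.0142), -1.94 at 24 h (0.0324), -1.62 with indirect CAP from day 1 (0.0476) and between -1.82 and -0.89 in the other groups (adjusted p from 0.0617 to 0.226). Without the library of line 2 in the treated group Reg3a was called at 24 h (-2.56, adjusted p = 0.00668), with PAM from day 1 (-3.43, 0.000835) and with indirect CAP from day 2, where it moved from -1.71 to -2.62 (0.00111). With PAM from day 2 the value was -1.82, and it was -3.02 when line 2 was left out of that group and -0.29 when line 4 was, neither called.

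**Figure D1:**
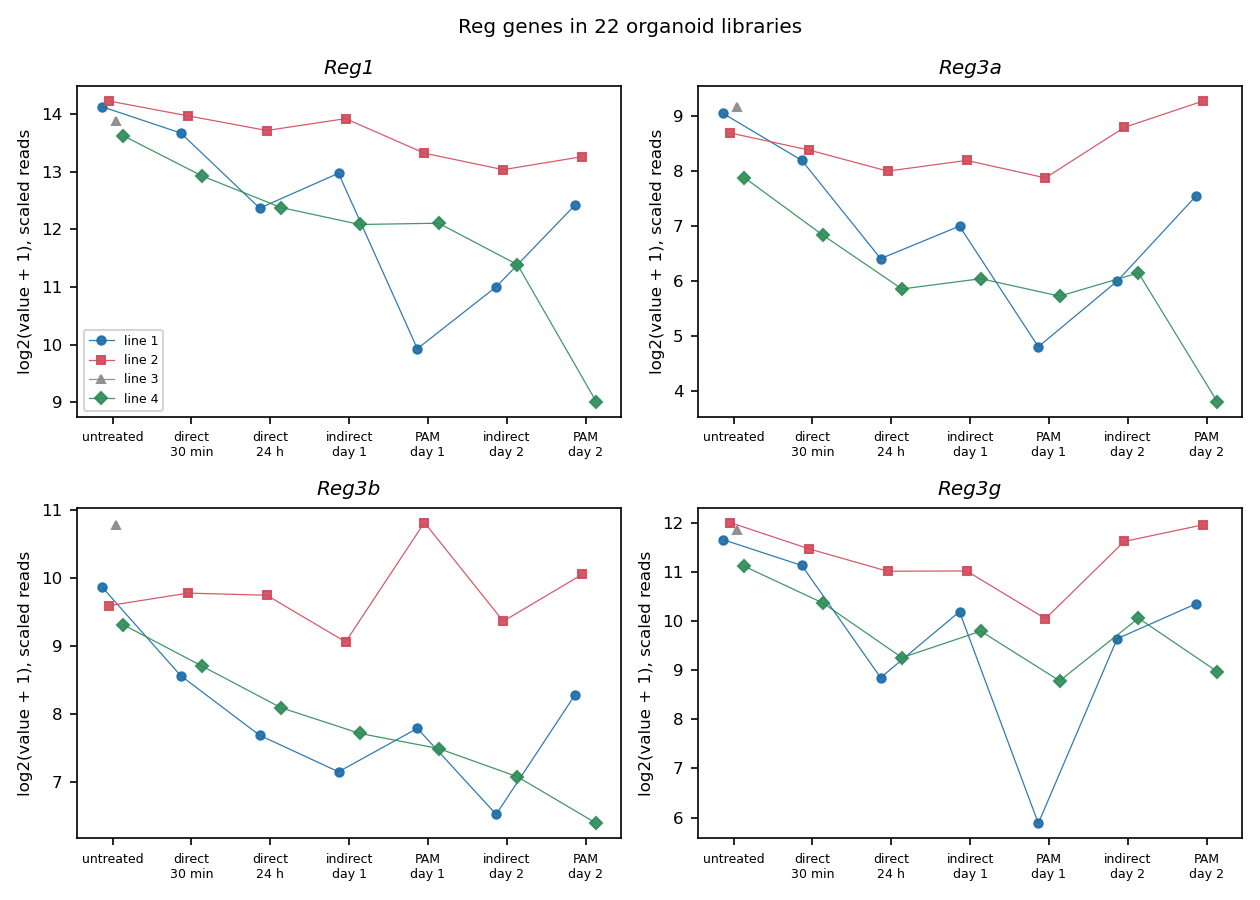
Log2(value + 1) of Reg1, Reg3a, Reg3b and Reg3g (scaled reads) in each of the 22 libraries, by group along the horizontal axis, with 1 symbol and colour per organoid line. Segments join libraries of the same line and mark no order in time. The red squares of line 2 are the highest of every treated group in all 4 panels, and line 1 has its lowest Reg1, Reg3a and Reg3g values with PAM from day 1.

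The balance between Reg3b and Reg3g differed among groups. Reg3b values were 0.188 to 0.475 times those of Reg3g in the untreated libraries (median 0.289) and 0.114 to 0.209 times with indirect CAP from day 2. With PAM from day 1 the ratio was 3.79 in line 1, 1.71 in line 2 and 0.408 in line 4, so that the first and second of these libraries were the only ones of 22 with more Reg3b than Reg3g reads. Reg3b made up 72.1%, 58.3% and 26.7% of the reads of the 3 Reg3 members in these libraries, against 14.6 to 29.2% in untreated ones. The PAM day 1 range overlapped the untreated range through line 4. The ratio was chosen for description after its values were seen, and it was not tested.

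**Figure D2:**
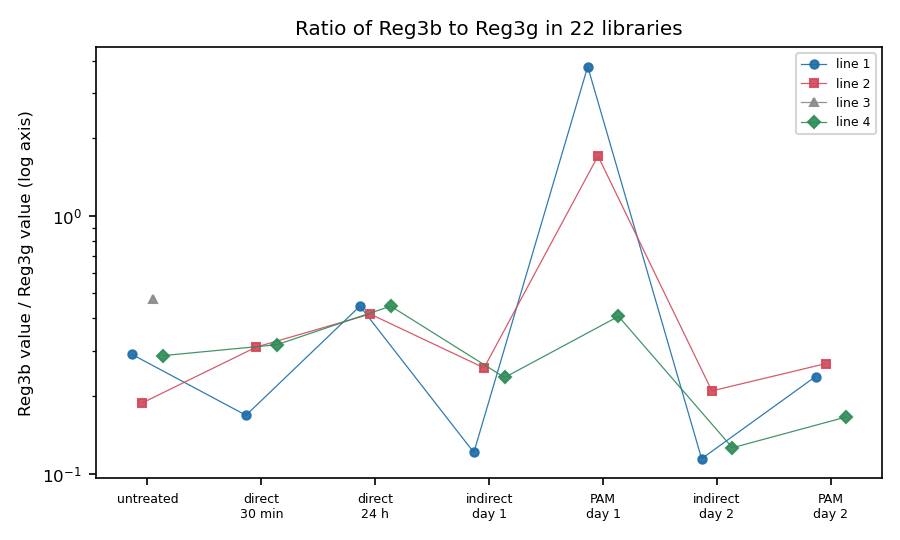
Ratio of the Reg3b value to the Reg3g value in each of the 22 libraries on a log axis, by group, with 1 symbol per organoid line and segments joining libraries of the same line. The PAM day 1 libraries of lines 1 and 2, at 3.79 and 1.71, lie above all others, which range from 0.114 to 0.475.

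Pigr, the IgA transporter, was the member with the most reads in untreated libraries and was lower than untreated in every treated library. It was at 45836, 39258, 43908 and 43901 in untreated lines 1 to 4, a narrow range, and at 32113, 34416 and 38090 in lines 1, 2 and 4 after direct CAP for 30 min. It was at 13590, 28055 and 20673 after direct CAP for 24 h, 17023, 25813 and 28768 with indirect CAP from day 1, and 6033, 23826 and 25761 with PAM from day 1. With exposure from day 2 it was at 7151, 16783 and 16587 (indirect CAP) and 8533, 15672 and 5575 (PAM). None of the 18 treated libraries overlapped the untreated range. Pigr fell by 1.78 on the log2 scale after indirect CAP from day 2 (SE 0.28, limma adjusted p = 0.00146) and by 2.25 after PAM from day 2 (SE 0.30, adjusted p = 0.000863). Both calls were lost only with no filter on low values (adjusted p at most 0.0292 and 0.0169 over 14 alternatives each). The log2 fold changes that were not called were -0.31 at 30 min (adjusted p = 0.141), -1.12 at 24 h (0.0132), -0.89 with indirect CAP from day 1 (0.0139) and -1.48 with PAM from day 1 (0.0288).

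Lypd8, the flagella-binding protein, went the other way. It was at 6859, 7813, 10040 and 9683 in untreated lines 1 to 4, and at 7821, 8986 and 16092 in lines 1, 2 and 4 after direct CAP for 30 min. It was at 14187, 16755 and 22832 after direct CAP for 24 h, 12145, 15841 and 20691 with indirect CAP from day 1, and 15638, 19509 and 29460 with PAM from day 1. With exposure from day 2 it was at 11290, 13343 and 18233 (indirect CAP) and 13043, 11861 and 11406 (PAM). Every treated library outside the 30 min group was above every untreated library. Lypd8 rose after PAM from day 1 by 1.29 on the log2 scale (SE 0.22, limma adjusted p = 0.00246, range over 14 alternatives 0.000887 to 0.0374), and this call was lost without all libraries of line 4 (adjusted p = 0.0136). The other values were 0.29 at 30 min (adjusted p = 0.485), 1.05 at 24 h (0.0105), 0.90 with indirect CAP from day 1 (0.0187), 0.72 with indirect CAP from day 2 (0.0149) and 0.51 with PAM from day 2 (0.0222). Under the line block the 24 h value was 1.13 and was called (adjusted p = 0.005).

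Retnlb, the goblet cell peptide, split the lines. It was at 1862, 916 and 1173 in untreated lines 1, 2 and 3 and at 3 in line 4. In lines 1 and 2 it was at 515 and 944 after direct CAP for 30 min, 261 and 649 for 24 h, 293 and 600 with indirect CAP from day 1, and 40 and 271 with PAM from day 1. With exposure from day 2 it was at 181 and 357 (indirect CAP) and 92 and 191 (PAM). In line 4 it was listed at 0 in 5 treated libraries and at 1 in the PAM day 1 library, so that line 4 was near 0 whatever the treatment. Values are rounded up, so a 0 means no counted read, which at 95% confidence allows an expected count of up to 3. With line 4 in the fits the log2 fold changes ranged from -3.52 to -1.93 with SE of 2.33 to 2.78, and the adjusted p was 0.271 or more. Without the libraries of line 4, an alternative added after its values were seen, the log2 fold change was -0.85 at 30 min (limma adjusted p = 0.441), -1.61 at 24 h (0.0716), -1.59 with indirect CAP from day 1 (0.0646) and -3.58 with PAM from day 1 (0.0214). In the same fits Retnlb fell with indirect CAP from day 2 (-2.30, adjusted p = 0.0068) and with PAM from day 2 (-3.24, adjusted p = 0.00195). With the line as a block and line 4 kept in, the values were -2.24 (limma adjusted p = 0.00892) and -2.86 (0.00807). Line 4 enters both with a log2 difference of -2, from values of 3 and 0, which depends on the added 1. Summed goblet cell markers were 76008 to 132955 in untreated libraries, 82472 to 168426 at 30 min and 86766 to 168146 at 24 h. They were 77819 to 141669 with indirect CAP from day 1 and 82226 to 184181 with PAM from day 1. From day 2 they were 58348 to 90327 (indirect CAP) and 17544 to 46804 (PAM). Their part in the Retnlb values was not tested.

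Lcn2, the siderophore-binding lipocalin, was close to 0 in most libraries. It was at 2, 0, 7 and 3 in untreated lines 1 to 4 and between 1 and 10 in the 12 libraries of the 30 min, 24 h and day 1 groups. In lines 1, 2 and 4 it was at 10, 24 and 43 with indirect CAP from day 2 and at 13, 17 and 10 with PAM from day 2. All 6 day 2 libraries were above all 4 untreated ones. It passed the filter on low values only in comparisons with a day 2 group, where it is high, so that its fold there had to differ, and its size depends on the added 1. The log2 fold change was 2.87 with indirect CAP from day 2 (SE 0.74, limma adjusted p = 0.0140) and 2.17 with PAM from day 2 (SE 0.66, adjusted p = 0.0272), neither called. With the line as a block the first was 3.33 and was called (adjusted p = 0.00994). Saa1, the acute-phase protein, had a value of 1 in the indirect day 2 library of line 4 and 0 in all others, and it was tested in none of the comparisons.

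**Figure D3:**
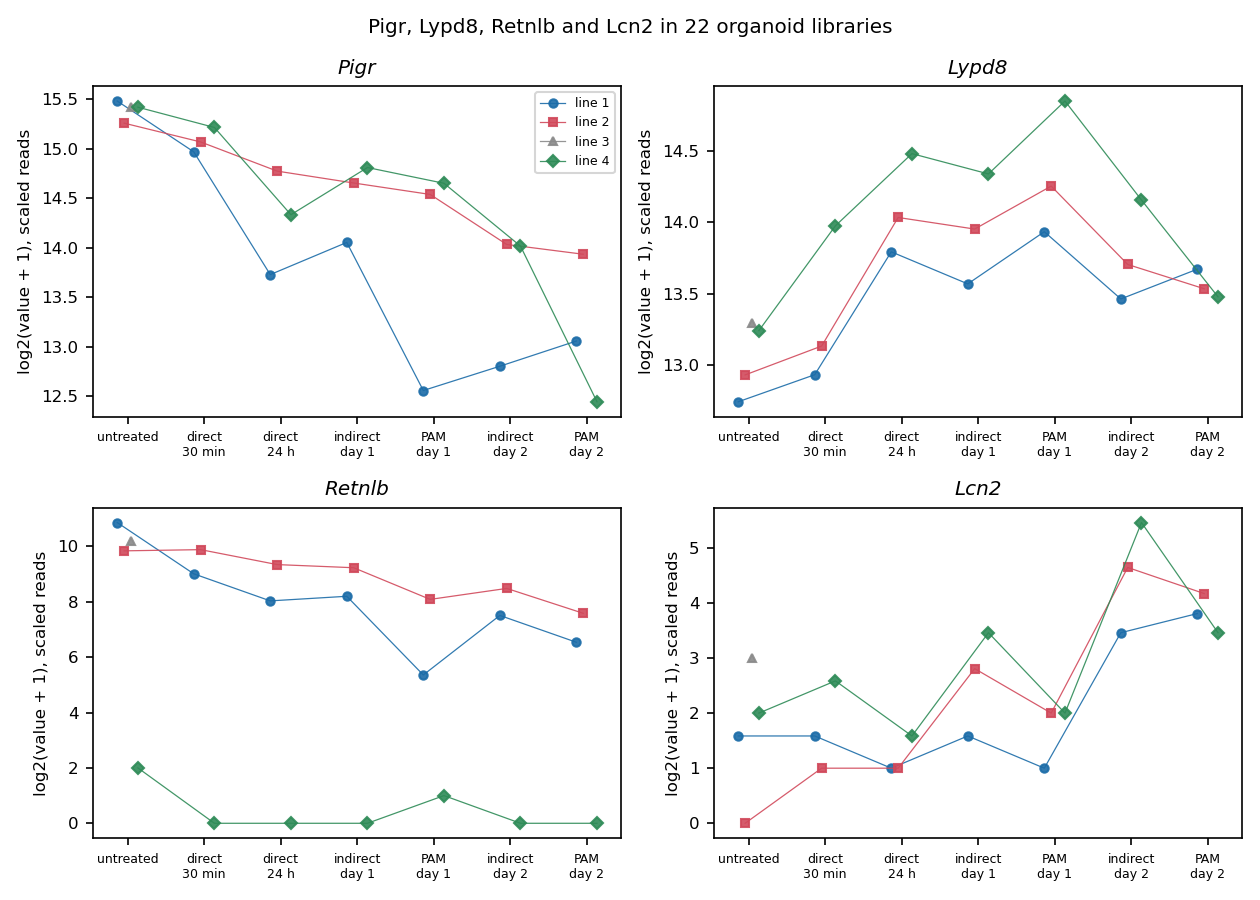
Log2(value + 1) of Pigr, Lypd8, Retnlb and Lcn2 (scaled reads) in each of the 22 libraries, by group, with 1 symbol and colour per organoid line and segments joining libraries of the same line, in no order of time. Pigr is below and, outside the 30 min group, Lypd8 above every untreated library, Retnlb of line 4 never exceeds a value of 3, and Lcn2 reaches 10 in all 6 day 2 libraries and in 1 other.

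Counted by comparison, no member of 7 tested was called after direct CAP for 30 min, where 0.00564% of all genes were called, and 2 reached an unadjusted p under 0.05 in limma, as 24.9% of all genes did. None of 7 was called at 24 h (background 2.17%) or with indirect CAP from day 1 (1.31%). In each of these 6 members reached an unadjusted p under 0.05, where 32.6% of all genes did so at 24 h and 38.6% with indirect CAP from day 1. With PAM from day 1, 1 of 7 was called (background 10.2%), with indirect CAP from day 2, 2 of 8 (11.9%), and with PAM from day 2, 1 of 8 (17.3%). With so few members tested, these shares are no result about the members. At a looser limit, an adjusted p below 0.05 whatever the fold, the counts were 0, 5, 5, 5, 6 and 4 in the same order of groups, where 0.00564%, 17.3%, 20.6%, 41.8%, 43.8% and 47.6% of all genes passed. The 6 and the 4 include Lcn2, which was tested only through the group where it is high. Members whose treated and untreated libraries did not overlap numbered 1 at 30 min (23.6% of all genes did not overlap), 3 at 24 h (30.7%), 4 with indirect CAP from day 1 (34.4%), 5 with PAM from day 1 (46.8%), 4 with indirect CAP from day 2 (48.5%) and 4 with PAM from day 2 (53.4%). Both day 2 counts of 4 include Lcn2, whose groups had to differ there because it passed the filter only through the day 2 libraries. The median log2 fold change over the members tested was -0.67, -1.38, -1.32, -2.18, -1.75 and -1.73, beside -0.13 to 0.02 over all genes. In every group 6 of the tested members had a negative fold change, and the others were Lypd8 and, in the day 2 groups, Lcn2.

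**Figure D4:**
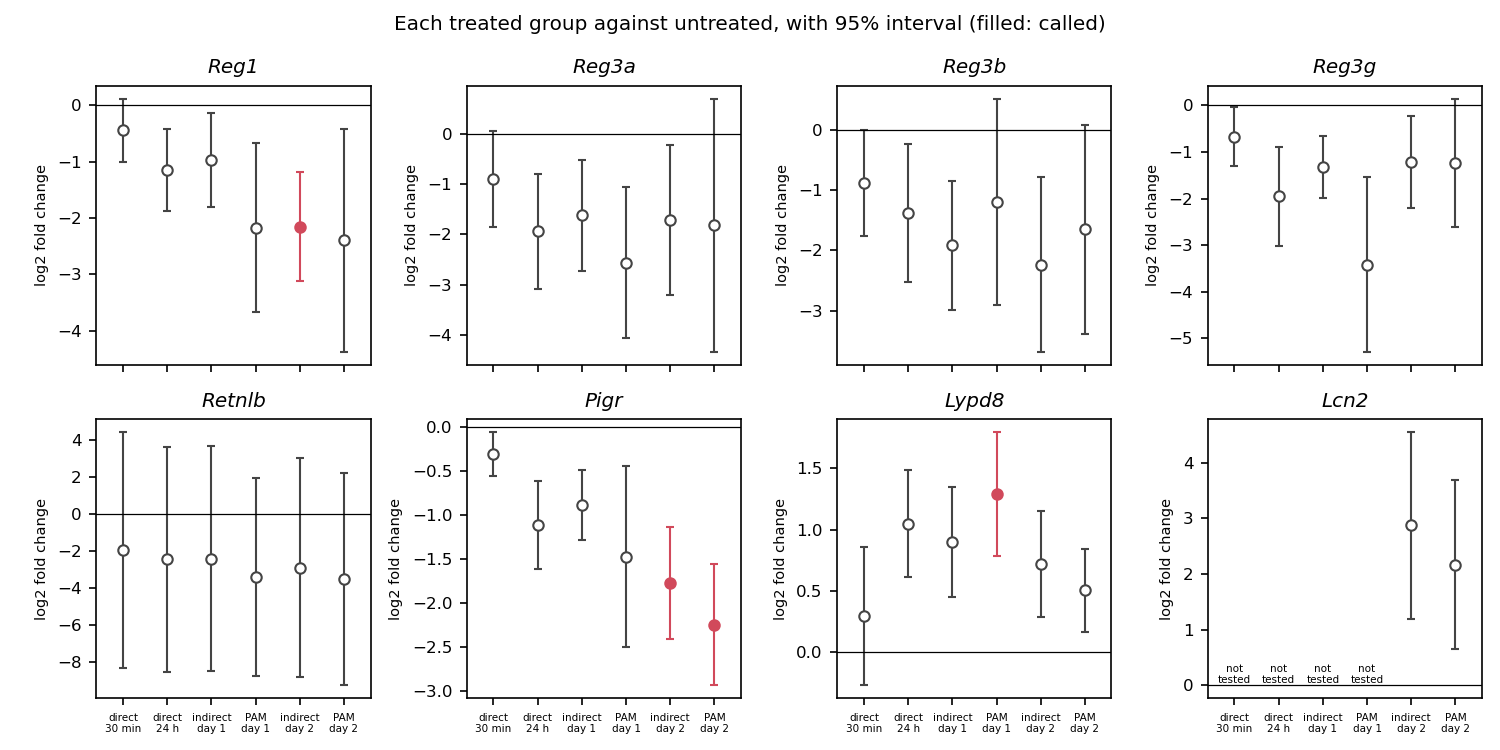
Log2 fold change of 8 members in each treated group against the 4 untreated libraries, with its 95% interval from limma; filled red points passed the threshold and open points did not. The 4 filled points are Reg1 with indirect CAP from day 2, Pigr in both day 2 groups and Lypd8 with PAM from day 1, the vertical scale differs between panels, and Lcn2 was not tested in 4 groups.

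When the direct 24 h, indirect day 1 and PAM day 1 libraries (9 in all) were pooled and compared with the 4 untreated ones, 1 of 7 members was called (background 6.34%). The 9 libraries come from lines 1, 2 and 4, each used once per group. The main fit took them as independent, so its SE and p do not rest on 9 separate mice. Lypd8 rose by 1.08 on the log2 scale (SE 0.19, limma adjusted p = 0.0013, range over 20 alternatives 9.63e-05 to 0.0109). Its fold dropped just under the minimum without the untreated library of line 1 (0.98), the PAM day 1 library of line 4 (0.99) or all libraries of line 4 (0.93). Reg3a had a log2 fold change of -2.04 (adjusted p = 0.0120), Reg3g -2.23 (0.0250), Pigr -1.16 (0.0145), Reg3b -1.49 (0.0570), Reg1 -1.43 (0.0524) and Retnlb -2.75 (0.338). Pigr, Reg3g and Lypd8 did not overlap the untreated libraries, as 17.7% of all genes did not. At an adjusted p below 0.05 whatever the fold there were 4 members, and 33.5% of all genes. Reg3a was also called with the line as a block (-1.88, limma adjusted p = 0.00617).

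Between treated groups, limma called no member in any of the 5 comparisons, with 0% of all genes called in 4 of them and 0.0111% in indirect CAP from day 2 against day 1. At an unadjusted p under 0.05 there were 3 members for direct CAP at 24 h against 30 min (Reg3g -1.28, Pigr -0.81 and Lypd8 0.75 on the log2 scale), where 21.4% of all genes reached it. None did for indirect CAP or PAM from day 1 against direct CAP for 24 h (6.95% and 10.4% of all genes), and 2 each did for the later against the earlier start of indirect CAP (21.7%) and of PAM (26.8%). Against day 1, indirect CAP from day 2 had Lcn2 at 1.90 (adjusted p = 0.153) and Pigr at -0.89 (0.214), and PAM from day 2 had Lcn2 at 2.15 (0.0594) and Lypd8 at -0.78 (0.0948). All 3 Lypd8 values with PAM from day 2 lay below all 3 from day 1, and all 3 of Lcn2 above, where 33.2% of all genes did not overlap. The 95% interval of the indirect day 1 minus direct 24 h difference ran from -0.71 to 0.42 for Lypd8 and from -1.02 to 1.37 for Reg1. Differences within these intervals were not excluded. With the line as a block, among treated libraries where the same lines do pair, indirect CAP from day 2 against day 1 had Reg1 called lower (-1.18, limma adjusted p = 0.00207) and gave 1.90 for Lcn2 (adjusted p = 0.00177). In both comparisons of later with earlier start Lcn2 passed the filter on low values through the day 2 libraries, where it is high. Of the day 1 libraries compared, only that of line 4 with indirect CAP reached 10. The Lcn2 values in these comparisons are therefore a description.

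The 18 treated libraries hold each of lines 1, 2 and 4 once per group, so the lines could be compared within treatments. Limma's F test over lines called 5 of 8 members at an adjusted p under 0.01, against 22.5% of all genes: Reg3a (adjusted p = 0.00113), Reg3b (6.44e-05), Reg3g (0.00407), Retnlb (1.17e-09) and Lypd8 (0.0015). Line 2 was above line 1 by 1.76, 2.14 and 1.85 on the log2 scale for Reg3a, Reg3b and Reg3g, and above line 4 by 2.68, 2.22 and 1.65. It was the highest line in 6 of 6 treated groups for each of these, for Reg1 and for Retnlb. Line 4 differed from line 1 by -7.27 on the log2 scale for Retnlb and by 0.65 for Lypd8, where it was highest in 5 of 6 groups. Reg1 (adjusted p = 0.0119), Pigr (0.0157) and Lcn2 (0.0548) were not called. In the untreated libraries line 2 had more Reg1 and Reg3g than the others, but less Reg3a and Reg3b than lines 1 and 3. The test compares these 3 lines, not sexes or passages.

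Summed Paneth cell and stem cell markers had lower medians than untreated in every treated group, and Reg1, Reg3a, Reg3b and Reg3g had lower means in every one. The 6 Paneth cell markers summed to 30017 to 41590 in untreated libraries, 15123 to 33950 at 30 min, 14517 to 24155 at 24 h, 9196 to 21937 with indirect CAP from day 1, 4370 to 19040 with PAM from day 1, 18120 to 28614 with indirect CAP from day 2 and 4856 to 21442 with PAM from day 2. The 4 stem cell markers summed to 28399 to 33368 in untreated libraries, 17213 to 26825 at 30 min, 4515 to 8518 at 24 h, 4840 to 12267 with indirect CAP from day 1, 770 to 1998 with PAM from day 1, 1951 to 2662 with indirect CAP from day 2 and 650 to 1925 with PAM from day 2. The 8 enterocyte markers summed to 116845 to 133428 in untreated libraries, 134599 to 145792 at 30 min and 114051 to 161190 at 24 h. Their sums were 117867 to 156531 with indirect CAP and 91056 to 172309 with PAM from day 1. From day 2 they were 111365 to 133792 (indirect CAP) and 153257 to 200943 (PAM). With indirect CAP from day 2, 3 of the 8 were called lower and 1 higher (background 11.9%), with a median log2 fold change of -0.70. With PAM from day 2, 1 was called higher (17.3%), and elsewhere none. The part of these markers in the Reg, Pigr and Lypd8 values was not tested, and in bulk RNA fewer cells of a type and less RNA per cell cannot be told apart.

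The pathways that act on these genes were followed in a list of 32 receptors, kinases and transcription factors, of which 31 were tested. Called genes were 0 at 30 min, 1 higher and 1 lower at 24 h, 0 and 1 with indirect CAP from day 1, 4 and 1 with PAM from day 1, 3 and 1 with indirect CAP from day 2, and 3 and 1 with PAM from day 2. Over all genes the share called was 0.00564%, 2.17%, 1.31%, 10.2%, 11.9% and 17.3% in the same order of groups. The median over the list was between 0.14 and 0.45, beside -0.13 to 0.02 over all genes. Nod1, a cytosolic sensor of bacterial peptidoglycan, fell in 5 of 6 groups, from a mean of 98.8 ± 13.9 (SD, n = 4) untreated to 15.0 ± 2.0 (n = 3) with PAM from day 2, where its log2 fold change was -2.64 (limma adjusted p = 0.000321). Socs3, the feedback inhibitor of STAT3 signalling, rose in PAM day 1 and both day 2 groups, with its largest log2 fold change at 1.38 (PAM day 2). Tlr4, the lipopolysaccharide receptor, rose at 24 h and in both PAM groups, by 1.66 with PAM from day 1, and Il1r1, the interleukin-1 receptor, rose in PAM day 1 by 2.21. Il22ra1, the receptor chain for interleukin-22, was at 1070 ± 134 untreated and 2032 ± 212 with PAM from day 1, and Stat3 at 1719 ± 103 and 2538 ± 144. Neither passed the threshold.

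Of 30 other epithelial antimicrobial genes 21 were tested. None was called at 30 min, 3 were lower at 24 h and 3 with indirect CAP from day 1, 3 were higher and 4 lower with PAM from day 1, 1 and 2 with indirect CAP from day 2, and 1 and 3 with PAM from day 2, to be read against the same shares over all genes. Itln1, a Paneth cell lectin, fell in 5 of 6 groups, from 10082 ± 1465 (SD, n = 4) to 2338 ± 1483 (n = 3) with PAM from day 1 (log2 fold change -2.43, limma adjusted p = 0.00648). The Paneth cell defensin Defa17 fell at 24 h and in both day 1 groups, with a log2 fold change of -2.20 for PAM, and defensin genes share sequence, so its reads may be split among copies. Lgals3, a galectin, rose in PAM day 1 and both day 2 groups, from 981 ± 565 to 10492 ± 7908 with PAM from day 2 (3.40). Sprr2a3, a small proline-rich protein, rose with PAM from day 1 by 2.12. The list therefore held called genes in both directions in the PAM day 1 and both day 2 groups.

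Of 12 relatives of the members 3 to 5 were tested in each of the 6 groups. Reg2, next to Reg3a in the cluster, was at 4.25 ± 3.4 untreated and 43.3 ± 34.4 with PAM from day 1 (log2 fold change 3.01, limma adjusted p = 0.00761). Lypd3 was at 0 to 8 untreated and at 14 or more in all PAM day 1 and day 2 libraries, with a log2 fold change of 3.39 with PAM from day 2. Lypd6 was at 9 to 21 untreated and at 0 to 6 in the day 2 groups, with a log2 fold change of -3.32 for PAM. These 3 genes were past the threshold there, but each reached 10 in only 1 of the groups compared and so was tested only through the group where it is high, so these values are a description. Lypd6b rose at 24 h (1.81) and with PAM from day 1 (2.05). Reg4, an enteroendocrine-enriched Reg gene, rose with indirect CAP from day 2 by 1.55. Reg3d, the remaining gene of the cluster, had group means of 2.3 to 7.5. Saa2, Saa3, Saa4 and the genes Retn, Retnla and Retnlg had means of at most 13.

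Over the 22 libraries the log2 values of Reg1 correlated with those of Reg3a (Pearson r 0.90), Pigr (0.84), Reg3g (0.80) and Reg3b (0.78), and Lypd8 was negatively correlated with each member but Lcn2 (-0.59 to -0.20, with Lcn2 0.21). These libraries share lines and groups, so r is a description. Among 19369 genes, those most like the members other than Lcn2 and Saa1 were Slc39a5, a zinc transporter, for Reg1 (r 0.979), Cndp1 for Reg3a (0.959), Surf4 for Reg3b (0.915), Gm11586 for Reg3g (0.943), Gm43305 for Retnlb (0.975), Ssx2ip for Pigr (0.945) and Mmp28 for Lypd8 (0.954). Next in rank were Dpyd and Trim38 for Reg1, Cox7a1 and Plekhf1 for Reg3a, Sec14l2 and Bst1 for Reg3b, Nags and Nkx2-2os for Reg3g, Gm7666 and Gm11585 for Retnlb, Plekha2 and Kcnk16 for Pigr, and Ano10 and 1700020L24Rik for Lypd8.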

How the data were processed

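Organoid RNA was sequenced as paired reads of 100 bases. The authors trimmed the reads with Trimmomatic 0.36, aligned them to GRCm38 with STAR 2.5.3a and counted them on Ensembl 90 genes with HTSeq 0.9.1, by their methods and the processing notes of the submitters. The deposited values are a score per gene and library that the authors name CP20M. Here it proved to be a read count rounded up after scaling to about 20 M, with library sums that were 20007540 to 20016513. Since these are not raw counts, count tests were not run. Low values show that they were not divided by gene length, though the paper defines the unit per kilobase.

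Tests used limma 3.58.1 (trend) in R 4.3.3 on log2(value + 1), over genes that reached 10 in 3 libraries of the fit or more. Calls needed a Benjamini-Hochberg adjusted p below 0.01 and a log2 fold change of 1 or more in size. Figures were drawn with Python 3.11.15 and matplotlib 3.10.9. The fit and the depth estimate were tested on simulated data. Of the deposited identifiers 52403 of 52636 (99.6%) are in GENCODE vM21. The members and the gene lists were chosen with earlier results of these data known. The genes named from each list are up to 4 with the largest called fold change in the single-group comparisons. Others, chosen after their values were seen, are Il22ra1, Stat3, Reg3d, Reg4, Saa2, Saa3, Saa4, Retn, Retnla and Retnlg. The genes most like Lcn2 are not reported here. No replicate pair was a copy. Samples with the same line number come from the same organoid line: after group means were removed, treated libraries of 1 line correlated at a median r of 0.564 (45 pairs, lowest 0.219) and those of other lines at -0.330, so the line was used as a block in an alternative. Other alternatives were a pseudocount of 10, no filter, quantile normalization, all libraries in 1 fit, a limit of 0.05 on adjusted p whatever the fold, and leaving out each library, or (added after the data were seen) line 4.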

Additional observations from a re-analysis of the deposited data

How the results depend on the processing

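Of 847 member fold changes recomputed under the alternatives, 843 kept their direction. The 4 that turned came from leaving out the library of line 4 in the treated group: leaving out 1 library in turn moved Retnlb between -4.00 and 1.22 at 30 min, -4.51 and 0.46 at 24 h and -4.49 and 0.49 with indirect CAP from day 1, and Lypd8 between -0.019 and 0.50 at 30 min. The cause was not tested, except that Retnlb is near 0 in the untreated library of line 4, which then stays in the fit alone.

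With the line as a replicate block, the number of members called was 1 at 24 h, 1 with indirect CAP from day 1, 4 with indirect CAP from day 2, 2 with PAM from day 2, 2 for 24 h from day 1, and 2 for indirect CAP from day 2 against day 1, and the block changed no other count of calls. Blocked comparisons with untreated rest on line labels in doubt for lines 1 and 2. The 4, and the 2 for indirect CAP from day 2 against day 1, include Lcn2, which passed the filter on low values through the day 2 group, where it is high. With a limit of 0.05 on adjusted p whatever the fold, the counts against untreated were 5, 5, 5, 6 and 4 from direct 24 h to PAM day 2, and 4 for 24 h from day 1. With no filter on low values they were 0 in PAM day 1, indirect day 2, PAM day 2 and 24 h from day 1, as 52636 genes enter the test, and 2 of the members differed between lines. Quantile normalization moved the median fold change of all genes with PAM from day 2 from -0.12 to 0.000267, and gave 1 member called at 24 h and 2 for 24 h from day 1. A pseudocount of 10 gave 2 with PAM from day 1 and 3 with indirect CAP from day 2, Lcn2 being added. All 22 libraries in 1 fit gave 2 with PAM from day 1 and 2 with PAM from day 2, Lcn2 being 1 of the latter. Without the libraries of line 4 the counts were 0 with PAM from day 1, 3 with PAM from day 2 and 0 for 24 h from day 1. Leaving out 1 library gave 0 to 4 members called at 24 h, 1 to 5 with PAM from day 1, 1 to 5 with indirect CAP from day 2, 1 to 2 with PAM from day 2, 0 to 3 for 24 h from day 1 and 4 to 7 between lines. The highest counts at 24 h, PAM day 1, indirect day 2 and 24 h from day 1 came without a treated library of line 2 (4, 5, 5 and 3). The cause of these changes was not tested. Shares over all genes are given above for the limit of 0.05 but not for the other settings. These counts therefore describe how calls moved and are no result about the members.

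Each treated group holds 3 lines, so a difference between groups rests on few mice. At about 20 M reads a value of 10 stands for about 10 reads, and Lcn2, Saa1 and Retnlb of line 4 lie at or near counting error.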
